A study of Mus musculus with 16 samples.

Results

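Dual-specificity MAPK phosphatases are a group of 7 genes here, Dusp1, Dusp2, Dusp4, Dusp5, Dusp6, Dusp10 and Dusp14, out of 31053 genes counted in lung and mesenteric lymph node (MLN) and 32285 counted in a second run. The 7 genes were given by name and were chosen by their UMI counts in these same libraries. Levels by organ and by IL-4eGFP gate are therefore a description, without p-values. The number of members past the threshold of the fit over all genes is given there beside the share of all genes past it. Calls of single members there, also in subsets of cells and alternative fits, belong to the same description. Nothing is read from either. Contrasts between cells of the same library, which the choice of the members did not use, are given with a test. These contrasts were themselves chosen with earlier results of these data known.

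The cells came from 4get mice, in which an eGFP reporter marks cells that transcribe Il4, including early stages of Th2 differentiation and NKT cells. All mice were infected with 500 third-stage larvae of Nippostrongylus brasiliensis, a rodent hookworm that passes through lung and gut, and were used at day 10, with no uninfected group. CD4+IL-4eGFP+ cells were sorted from lung and MLN of 2 mice of 13 weeks, giving the libraries Lung 1, Lung 2, MLN 1 and MLN 2. Lungs were perfused but kept some intravascular cells, and they were digested with enzymes and passed over percoll, while the MLN was only mashed. A separate run held CD4+ cells of the mediastinal lymph node (medLN) and MLN of 2 other mice of 10 weeks, carrying a hashtag for mouse and organ and sequenced as 1 library per IL-4eGFP gate, so that gate and library cannot be told apart. After filtering there were 4714 cells with 2798232 to 14512767 UMIs per library and 416 to 2462 cells each in lung and MLN, and 16748 hashtag singlets with 7546083 to 10636927 UMIs per sample in the nodes. The median cell held 4971 to 6910 UMIs in the first run and 3165.5 to 3666.5 in the second. The T cell genes Cd3e, Cd3d, Cd3g and Cd4 were all detected in each of the 12 samples, with a summed level of 3041 to 4081 CPM. On this counts-per-million scale the UMIs of a gene are divided by all UMIs of the sample or cluster. Levels by class of cells and means of an organ or gate divide by the UMIs without T cell receptor genes. Levels are not compared across the 2 runs, which differed in mice, reference and cell criteria. The libraries Lung 1 and MLN 1, with the longest barcode lists of the first run (1689 and 3013), shared 10 barcode sequences, the most in that run. The 2 gates of the node run, with 9603 and 10080 barcodes, shared 155. The number expected by chance was not worked out.

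MAP kinases carry signals from the T cell receptor, cytokine receptors and cell stress, and are switched on by phosphorylation of a threonine and a tyrosine in the same loop. Dual-specificity phosphatases remove both phosphates. Many are themselves transcribed shortly after MAP kinase activation, so that they act as a negative feedback, and they differ in where in the cell they act and in whether they prefer ERK, p38 or JNK. Dusp1 (MKP-1), Dusp2 (PAC-1), Dusp4 (MKP-2) and Dusp5 are inducible nuclear phosphatases. Dusp6 (MKP-3) is cytoplasmic and specific for ERK, Dusp10 (MKP-5) prefers JNK and p38, and Dusp14 is a small atypical member without the domain that docks MAP kinases.

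In GENCODE on GRCm38, the annotation of the build used for mapping, the 7 genes lie on 7 chromosomes. Dusp1 spans chr17:26505590-26562128 on the minus strand and Dusp5 chr19:53529109-53542431 on the plus strand. Dusp2 spans chr2:127336159-127338376, Dusp4 chr8:34807297-34819894, Dusp6 chr10:99263231-99267489 and Dusp10 chr1:184013302-184075636, all on the plus strand, and Dusp14 spans chr11:84048041-84069261 on the minus strand. Start site sequences (RefSeq, GRCm38.p6, 250 bases before to 50 after the start) were found for 6 of the 7 genes, all but Dusp4. For Dusp1, Dusp10 and Dusp14 the whole window lies inside the GENCODE span. The RefSeq start used for these genes is therefore not the outermost start of that span. Dusp1 and Dusp5 are shown because their levels differed most in CPM between lung and MLN, and Dusp10 because it moved apart from them in the comparisons that follow. Capitals mark motif matches, in Dusp1 (chr17:26508423-26508722, minus strand) a cAMP response element and in Dusp5 (chr19:53528895-53529194, plus strand) a pair of CArG boxes, the sequence bound by serum response factor. The Dusp10 window (chr1:184034131-184034430, plus strand) had no match.
Dusp1: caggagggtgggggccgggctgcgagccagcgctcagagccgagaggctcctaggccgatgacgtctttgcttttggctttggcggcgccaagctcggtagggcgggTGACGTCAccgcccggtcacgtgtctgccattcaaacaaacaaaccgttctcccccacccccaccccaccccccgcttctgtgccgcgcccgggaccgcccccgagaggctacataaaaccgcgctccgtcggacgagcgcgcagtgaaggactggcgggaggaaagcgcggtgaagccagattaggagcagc
Dusp5: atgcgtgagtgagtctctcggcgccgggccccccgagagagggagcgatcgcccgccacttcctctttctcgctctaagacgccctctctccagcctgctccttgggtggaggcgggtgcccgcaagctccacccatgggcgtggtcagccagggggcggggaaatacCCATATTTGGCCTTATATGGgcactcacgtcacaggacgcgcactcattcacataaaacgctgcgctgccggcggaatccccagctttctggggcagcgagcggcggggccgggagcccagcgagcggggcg
Dusp10: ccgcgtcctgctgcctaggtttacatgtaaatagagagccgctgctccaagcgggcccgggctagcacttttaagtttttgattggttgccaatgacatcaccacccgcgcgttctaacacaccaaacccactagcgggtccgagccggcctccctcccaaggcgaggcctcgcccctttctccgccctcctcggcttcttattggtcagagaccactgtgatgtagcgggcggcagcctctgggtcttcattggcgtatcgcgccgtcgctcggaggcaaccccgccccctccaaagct

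The motifs searched on both strands were the cAMP response element TGACGTCA, AP-1 TGANTCA, ETS CCGGAAG, EGR GCGTGGGCG, STAT TTCNNNGAA, the CArG box and NF-κB, the last 2 by their degenerate consensus. The cAMP response element, with its first base 143 bases before the start of Dusp1, was in 1 of the 6 windows and in 1.79% of 32851 windows of the same length. CArG boxes 82 and 72 bases before the start of Dusp5 made it the only one of the 6 with this motif, which 1.63% of all windows held. Dusp14 had a STAT match 200 bases before its start, as 8.30% of all windows did. The windows of Dusp2 and Dusp6 held no match, and none of the 6 had an AP-1, ETS, EGR or NF-κB match, which 7.81%, 8.86%, 0.612% and 8.46% of all windows hold. A match is a description of the letters in this window and not evidence of binding.

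Dusp1, Dusp5 and Dusp4 had the largest log2 fold changes between lung and MLN, and Dusp2, the other inducible nuclear member, the smallest. Dusp1, the early-response member, stood at 856 CPM in Lung 1 and 915 CPM in Lung 2 against 47.8 CPM in MLN 1 and 18.1 CPM in MLN 2. The lung libraries were thus close to each other, while the MLN libraries differed from each other and the log2 ratio of lung to MLN was 4.16 for mouse 1 and 5.66 for mouse 2. The fitted log2 fold change was 4.78 (SE 0.34). Dusp5, which acts on ERK in the nucleus, was at 597 and 514 CPM in lung and at 19.9 and 20.3 CPM in MLN, a log2 fold change of 4.93 (SE 0.17). Dusp4, the paralog of Dusp1 with the same nuclear location, was at 47.1 and 26.8 CPM in lung and rested on 27 and 6 UMIs in MLN, or 1.86 and 1.34 CPM, with a log2 fold change of 4.63 (SE 0.36).

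The remaining members differed by less. Dusp10, the phosphatase of JNK and p38, was at 335 and 278 CPM in lung and 77.5 and 73.7 CPM in MLN (log2 fold change 2.16, SE 0.15). Dusp6, the cytoplasmic ERK phosphatase, was at 36.8 and 60.4 CPM in lung against 23.5 and 26.1 CPM in MLN (1.05, SE 0.19). Dusp2, known as a phosphatase induced in activated lymphocytes, was at 35.7 and 22.5 CPM in lung against 17.5 and 15.6 CPM in MLN (1.01, SE 0.23). Dusp14 was close to the limit of counting, with 68 and 13 UMIs in lung and 24 and 6 in MLN, that is 7.99 and 4.65 against 1.65 and 1.34 CPM (2.26, SE 0.40). In all 7 members both lung libraries lay above both MLN libraries, as for 25.0% of the 10588 genes tested, and all 7 passed the threshold as higher, as for 17.0% of genes. Without Lung 1, the deeper lung library, Dusp2 (log2 fold change 0.48) and Dusp14 (1.64) no longer passed.

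**Figure D1:**
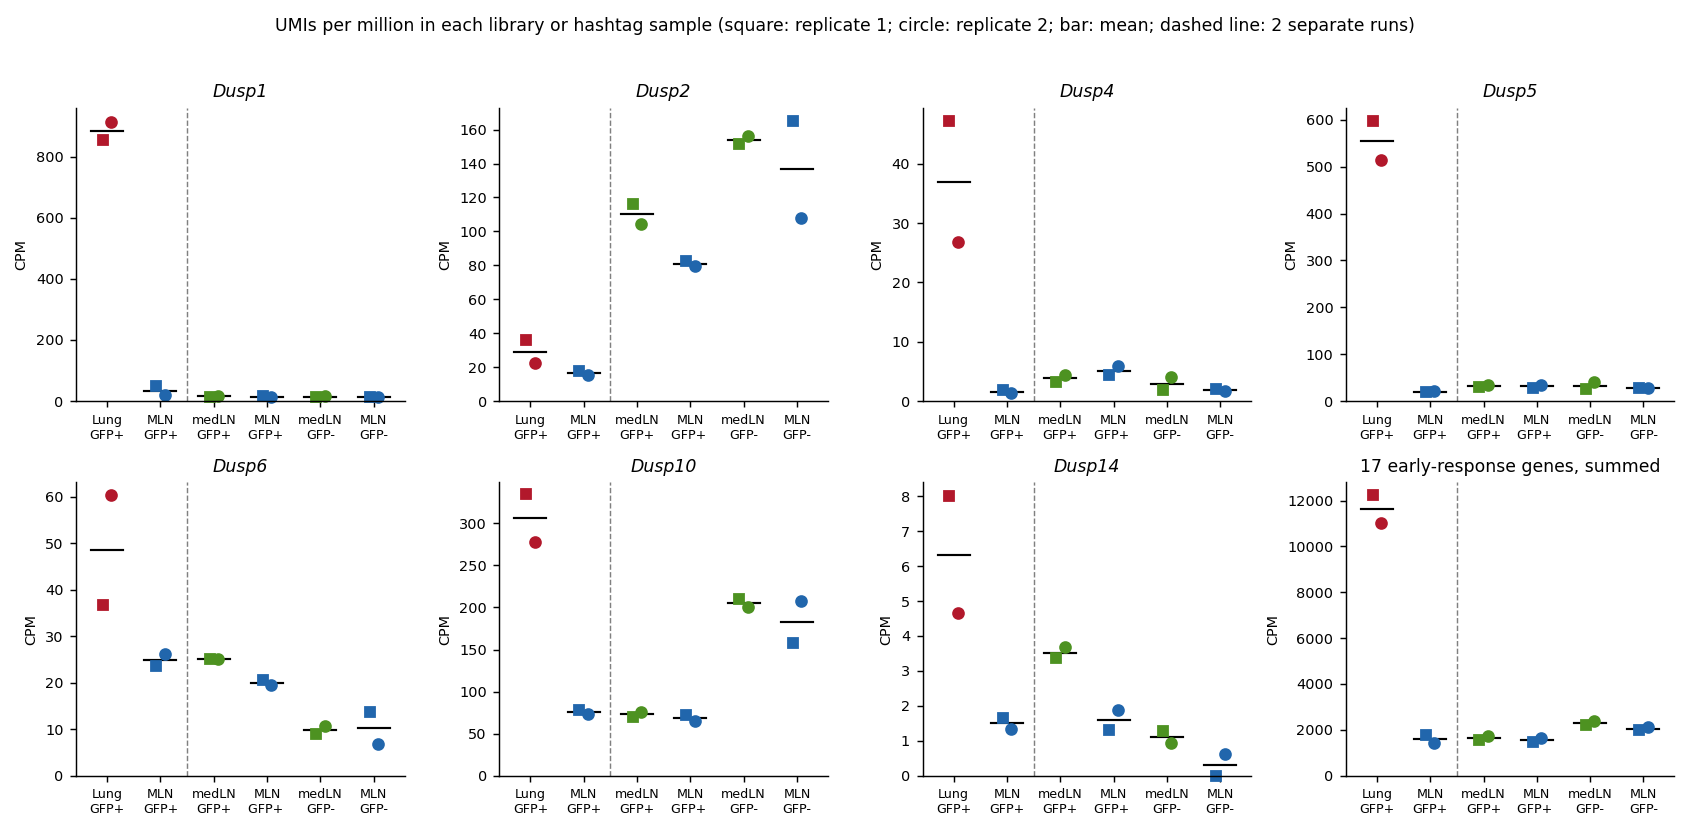
Level of each member (CPM, linear axis from 0) in the 2 lung and 2 MLN libraries and, right of the dashed line, in the 8 hashtag samples of the node run. Squares and circles are replicates 1 and 2, bars their mean, and the last panel sums the 17 early-response genes. Both lung libraries lie above both MLN libraries for every member, and within the node run Dusp10 is higher in all IL-4eGFP- samples.

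A UMI of Dusp1 was found in 89.3% of cells in Lung 1 (exact Clopper-Pearson 95% interval 87.3 to 91.1) and 85.8% in Lung 2 (82.1 to 89.0), against 20.6% in MLN 1 (19.0 to 22.2) and 9.55% in MLN 2 (7.55 to 11.9). With every cell thinned to 2000 UMIs the shares were 68.8% and 69.4% in lung and 9.29% and 4.17% in MLN. Dusp5 had a UMI in 83.2% and 69.7% of lung cells and in 8.61% and 8.75% of MLN cells. Its thinned shares were 57.1% and 45.6% in lung and 3.11% and 2.96% in MLN, and for Dusp10 they were 39.8% and 36.5% against 14.2% and 13.1%. Dusp4 was found in 8.15% and 5.88% of thinned lung cells. Single lung cells held up to 44 UMIs of Dusp1, 38 of Dusp5 and 30 of Dusp10, and single MLN cells up to 6, 7 and 6. The intervals cover counting error only, and no cell type known to lack these genes was present to measure free RNA.

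The genes around the phosphatases in the pathway moved unevenly between the organs. Of 15 genes of the ERK module 3 were higher in lung and none lower, a share near the 17.0% of all genes called higher. The counts of the other lists stand beside that same share. The median log2 fold change of the module was 0.18 beside -0.01 over all genes tested. Rasgrp1, which activates Ras behind the T cell receptor, was at 244 CPM in lung and 195 CPM in MLN (0.47, SE 0.11), and Nras at 51.4 and 36.2 CPM (0.61, SE 0.13). Of 15 genes tested of the p38 and JNK module, 6 were higher and 1 lower, with a median of 0.14. Mapkapk3, a kinase downstream of p38, was at 155 CPM in lung and 41.2 CPM in MLN (2.07, SE 0.13), and Map2k6, a kinase that activates p38, was lower, at 15.8 and 30.0 CPM (-0.79, SE 0.16). Among 11 genes tested of the list of ERK feedback genes and targets, 6 were higher and 1 lower. Ier3 was at 40.0 CPM in lung and 1.85 CPM in MLN (4.54, SE 0.56), whereas Egr2 was at 13.5 and 41.1 CPM (-1.48, SE 0.20). Of 12 other DUSP genes tested, 4 were higher and none lower, with a median of 0.16, and those of at least 20 CPM were Dusp11 (0.43, SE 0.11) and the slingshot phosphatase Ssh2 (0.42, SE 0.12). In the IL-2 and STAT5 list 5 of 8 genes were higher, with a median of 1.89, Socs2 having the largest log2 fold change of those above the level minimum (3.42, SE 0.16). In the glucocorticoid list 4 of 6 were higher, with a median of 1.15, among them Per1 (2.80, SE 0.19) and Tsc22d3 (2.58, SE 0.22). Dusp1 is itself known to be induced by glucocorticoids, and whether they had a part in its level here was not tested.

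Early-response genes moved with the members. Of 17 such genes, which are also known to rise while tissue is digested, 16 were higher in lung and none lower, with a median log2 fold change of 2.66. Their summed level was 12248 and 11022 CPM in lung against 1789 and 1437 CPM in MLN. Digestion and organ cannot be told apart in these libraries. In the 183 and 39 lung cells and 1741 and 685 MLN cells without any UMI of Fos, Fosb, Atf3, Hspa1a or Hspa1b, Dusp1 was at 831 and 491 CPM in lung and 42.2 and 17.0 CPM in MLN. The log2 fold change in these cells was 4.58 (SE 0.36) for Dusp1, 4.69 (SE 0.21) for Dusp5, 5.13 (SE 0.45) for Dusp4 and 2.08 (SE 0.16) for Dusp10. Dusp6 and Dusp2 stood at 1.29 and 1.23. Dusp4 rested on 72 and 4 UMIs in lung and 19 and 5 in MLN, and Dusp2 on 4 UMIs in Lung 2. The other 12 early-response genes were still at 9835 and 6802 CPM in these lung cells against 1616 and 1380 CPM in the MLN cells, so the subset was not free of the early response. Of 6 myeloid genes tested 4 were lower in lung and 1 higher. The list summed to 184 and 167 CPM in lung, with 3 and 4 of its 7 genes at 0, and to 165 and 231 CPM in MLN. A cluster led by pancreas and myeloid RNA held 63 MLN cells. Without them the log2 fold changes of the 7 members ran from 0.998 for Dusp2 to 4.90 for Dusp5. The part of these differences in the members' levels was not tested further.

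The proliferating-like cluster was the only one with at least 30 cells from every library of the first run, holding 98, 48, 114 and 34 cells of Lung 1, Lung 2, MLN 1 and MLN 2. In it Dusp1 was at 484 and 676 CPM in lung and 28.9 and 15.7 CPM in MLN, a log2 fold change of 4.53 (SE 0.23), and Dusp5 at 384 and 395 against 24.1 and 29.4 CPM (3.97, SE 0.19). Dusp4 stood at 29.2 and 15.7 CPM against 8.03 and 3.93 CPM, a log2 fold change of 1.82 (SE 0.45) in place of 4.63 over all cells. It rested there on 43 and 10 UMIs in lung and 15 and 2 in MLN. For Dusp10, Dusp2 and Dusp6 the values were 1.75, 1.66 and 1.01, and Dusp6 did not pass.

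**Figure D2:**
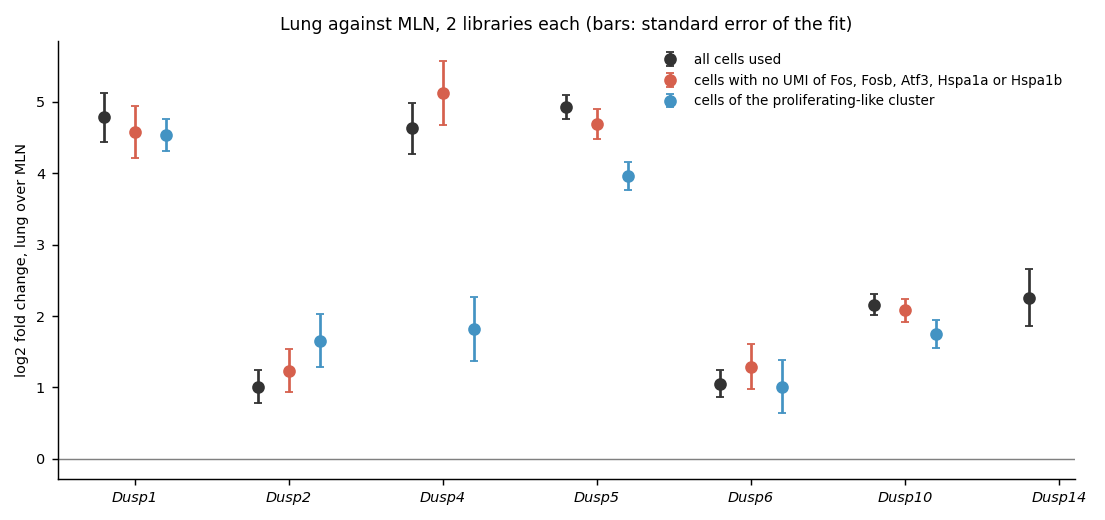
Log2 fold change of each member, lung over MLN, from edgeR on sums of 2 libraries each, with the standard error of the fit as bars. Black points are all cells, red points cells without UMIs of 5 early-response genes and blue points proliferating-like cells. Dusp4 falls from 4.63 to 1.82 among proliferating-like cells, where it rested on 10 UMIs in Lung 2 and 2 in MLN 2. Dusp14 was too low to be fitted in either subset.

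Clusters of cells set the members apart from each other and are given as a description. They were drawn from 1992 variable genes in the first run and 1997 in the node run, without the members and other DUSP genes. In the effector-like lung cluster of 1138 cells, led by Il5, Areg and Il1rl1, Dusp1 was at 1019 CPM, Dusp5 at 649 CPM, Dusp4 at 52.1 CPM and Dusp6 at 53.4 CPM. The migrating-like lung cluster of 184 cells, led by Ccr7, S1pr1 and Klf2, had the highest Dusp10 level of the 12 clusters, 704 CPM against 302 CPM in the effector-like cluster, and Dusp10 was among its 10 leading genes. Its Dusp6 level of 11.6 CPM was the lowest of the 12, and Dusp4 was at 11.6 CPM. This order held in both lung libraries, with Dusp10 at 743 and 649 CPM in migrating-like cells of Lung 1 and Lung 2 and at 320 and 240 CPM in effector-like cells, and Dusp4 at 8.55 and 18.9 CPM against 57.5 and 33.5 CPM. The migrating-like cluster of MLN cells, with markers like those of the lung one, had 97.8 CPM of Dusp10, within the range of the other MLN clusters. Among MLN cells, Dusp5 was at 66.6 CPM in a cluster of 237 cells led by Deptor, Ccr9 and Nmur1 and at 5.67 CPM in follicular helper-like cells led by Gal and Ascl2. Dusp2 was highest in the 88 innate-like cells, at 75.9 CPM. The cluster of 252 cells led by Egr2, Il2 and Csf2 had 38.7 CPM of Dusp6 and 35.9 CPM of Dusp2, above the MLN means of 24.9 and 16.7 CPM.

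Clusters of the node run, like those of the first, are given at a clustering resolution of 0.8. There Dusp2 and Dusp6 were highest in the same cluster, and Dusp10 was high in naive-like cells. At a resolution of 0.5 Dusp2 and Dusp6 peaked in different clusters, at 217 and 48.8 CPM, and Dusp5 peaked at 71.6 CPM. At 1.2 Dusp2 and Dusp6 again shared their highest cluster. The values that follow are those at 0.8. The 538 cells of a cluster led by Egr3, Egr2 and Nr4a1, genes that rise upon T cell receptor signaling, had 429 CPM of Dusp2 and 79.7 CPM of Dusp6, against 64.9 to 203 CPM and 8.59 to 51.4 CPM in the other clusters of over 100 cells. Both naive-like clusters, of 2731 and 698 cells led by genes such as Igfbp4 and Dapl1, had 265 and 231 CPM of Dusp10, and a cluster of 2542 cells led by Tmie and Ly6c1 had 210 CPM. Nearly all cells of these clusters came from the IL-4eGFP- gate. Regulatory-like cells, led by Foxp3, had 9.99 CPM of Dusp4, 72.2 CPM of Dusp5 and 170 CPM of Dusp2. The 536 effector-like cells, with Il13, Il5 and Areg in the lead, had the highest Dusp5 level, 104 CPM, and 9.81 CPM of Dusp1.

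**Figure D3:**
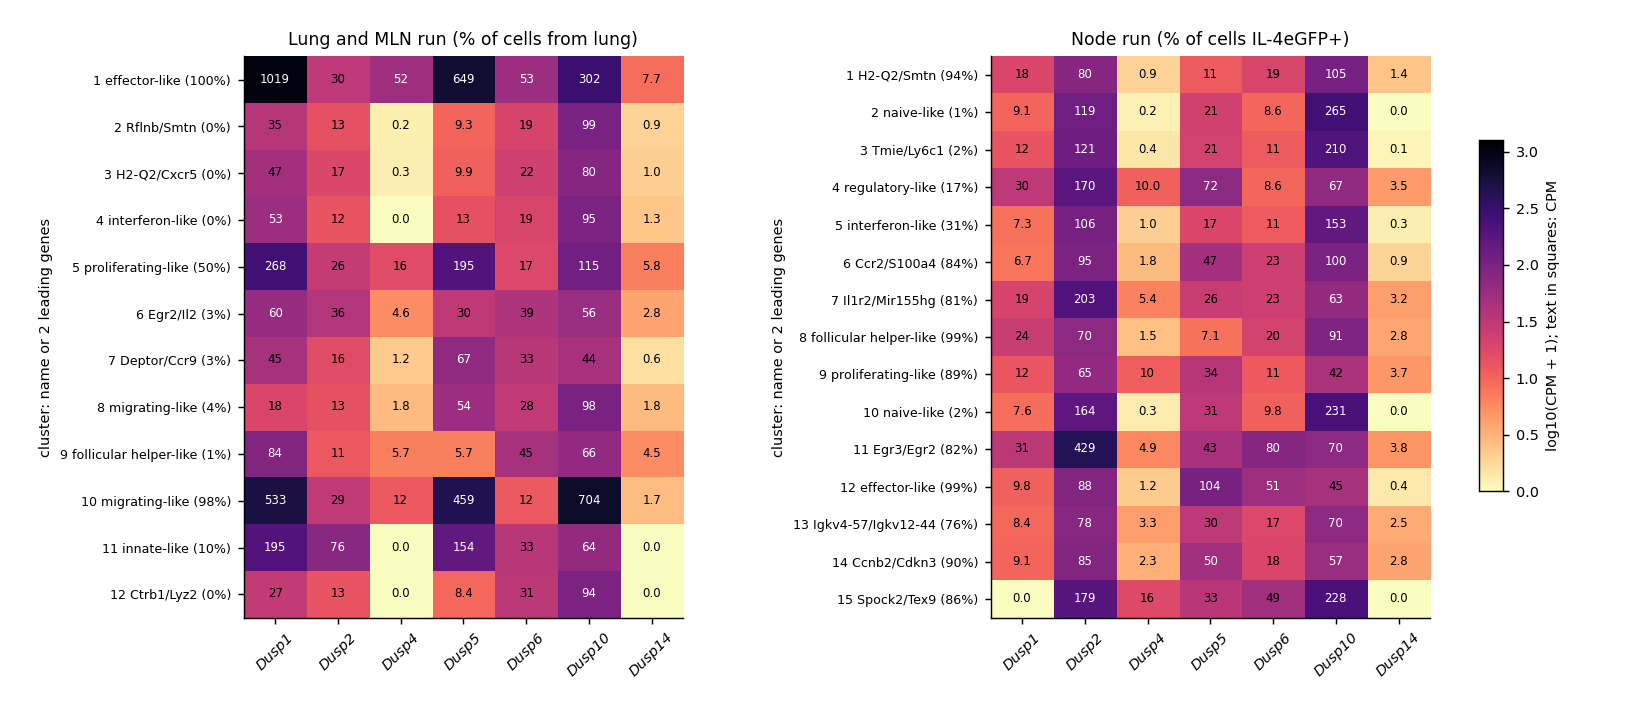
Level of each member by cluster in both runs, as color on a log10(CPM + 1) scale with the CPM written in each square. Row labels give the name or 2 leading genes and the share of cells from lung (left) or from the IL-4eGFP+ gate (right). Dusp10 is highest in the migrating-like cells of lung and in the naive-like cells of the nodes, and Dusp2 in the cluster led by Egr3 and Egr2.

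Between medLN and MLN the members differed little. Among IL-4eGFP+ cells Dusp2 was at 116 and 104 CPM in medLN and 82.3 and 79.5 CPM in MLN (log2 fold change 0.44, SE 0.08), and it was the 1 of 7 members called higher, as were 0.675% of genes. The call was lost when any 1 of the 4 samples was left out. Dusp6 was at 25.1 and 25.2 CPM in medLN against 20.5 and 19.6 CPM in MLN, and Dusp14 at 3.37 and 3.69 against 1.30 and 1.88 CPM, and neither passed. Dusp1 ranged from 12.6 to 16.8 CPM over these 4 samples and Dusp5 from 28.2 to 35.1 CPM, with both organs overlapping. Among IL-4eGFP- cells none of 6 members tested passed, beside 0.178% of genes. Over all genes 19 passed, 666 had an unadjusted p under 0.05, and DESeq2 called none of the 6 members. Dusp14 had 0 UMIs among the 2249 IL-4eGFP- cells of MLN 1, which allows up to 0.372 CPM.

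Between the gates Dusp10 was at 65.2 to 75.6 CPM in the 4 IL-4eGFP+ samples and at 158 to 210 CPM in the 4 IL-4eGFP- samples (log2 fold change -1.65, SE 0.07). Dusp2 was lower too, at 116, 104, 82.3 and 79.5 CPM in the IL-4eGFP+ samples medLN 1, medLN 2, MLN 1 and MLN 2 against 151, 156, 165 and 108 CPM in their IL-4eGFP- counterparts (-0.80, SE 0.09), and it was lower in each of the 4 pairs of the same mouse and organ. Dusp6 was at 19.6 to 25.2 CPM in IL-4eGFP+ samples and 6.85 to 13.7 CPM in IL-4eGFP- samples (0.98, SE 0.15). Dusp14 (1.66, SE 0.37) and Dusp4 (0.72, SE 0.25) were higher as well, at means of 2.57 against 0.716 CPM and 4.48 against 2.39 CPM. The call of Dusp4 was lost without the MLN 1 or the MLN 2 samples (log2 fold change 0.70 and 0.44) and in DESeq2. Thus 3 members passed as higher beside 31.6% of all genes and 2 as lower beside 32.0%, a share of members near that of all genes. Dusp1 (14.8 and 13.3 CPM on average) and Dusp5 (32.0 and 30.6 CPM) did not pass. Their fitted log2 fold changes were -0.045 and -0.12. The fit rescales each sample by edgeR's TMM factors, so its sign can differ from that of the CPM. Of 14 early-response genes tested, 11 were lower and 2 higher in IL-4eGFP+ cells. Of 6 myeloid genes tested, 4 were higher and none lower, with a summed level over the list of 341 to 489 CPM in IL-4eGFP+ and 242 to 432 CPM in IL-4eGFP- samples and no gene at 0 in any sample. The CD8 genes Cd8a and Cd8b1 summed to 6.67 to 11.6 CPM against 19.0 to 23.9 CPM, and Cd8b1 was lower (-1.41). The part of these genes in the members' levels was not tested. The cells of the gates also differ in state, since the naive-like cells lie almost entirely in the IL-4eGFP- gate. Among regulatory-like cells, with 37 to 81 cells per IL-4eGFP+ sample and 270 to 331 per IL-4eGFP- sample, the log2 fold change of Dusp10 was 0.34 (SE 0.21) and that of Dusp2 0.13 (SE 0.17) in place of -1.65 and -0.80 over all cells. Other clusters that both gates share differed in this. Dusp10 in interferon-like cells was at 63.9 to 104 CPM in IL-4eGFP+ and 151 to 209 CPM in IL-4eGFP- samples. Dusp2 was at 132 to 231 against 241 to 409 CPM in the cluster led by Il1r2 and Mir155hg, where Dusp10 overlapped between the gates (61.3 to 68.1 and 30.5 to 86.2 CPM), and at 247 to 412 against 732 to 1005 CPM in the one led by Egr3 and Egr2, there in 3 IL-4eGFP- samples of 22 to 31 cells.

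Lung cells that transcribed the type 2 effector cytokines had more Dusp4 and Dusp6 and less Dusp10 than other cells of the same library. Cells with at least 1 UMI of Il5 or Il13 numbered 351 in Lung 1 and 88 in Lung 2, against 731 and 328 with neither. Dusp10 was at 199 CPM in cytokine-positive and 411 CPM in the other cells of Lung 1, and at 162 and 319 CPM in Lung 2, a log2 fold change of -1.04 (SE 0.09, adjusted p = 1.01e-26 by edgeR's quasi-likelihood test over all genes, with library as a block). It fell by a similar factor in both libraries. Dusp4 was at 68.8 against 35.4 CPM in Lung 1 and at 31.2 against 25.4 CPM in Lung 2 (0.83, SE 0.15, edgeR adjusted p = 3.23e-06), and most of that difference lay in Lung 1. Dusp6 was at 50.9 against 29.2 CPM in Lung 1 and 86.5 against 51.8 CPM in Lung 2 (0.76, SE 0.15, edgeR adjusted p = 1.02e-05), with the higher level in Lung 2 for both classes.

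Thus 2 of 7 members were higher, beside 4.63% of 9305 genes tested, and 1 was lower, beside 4.94%. Dusp1 was at 843 against 866 CPM in Lung 1 and 797 against 959 CPM in Lung 2 and did not pass (edgeR adjusted p = 0.130), nor did Dusp5 (0.196), Dusp2 (0.560) and Dusp14 (0.0885), which rested on 81 UMIs in all. Within the effector-like cluster alone Dusp10 differed by -0.87, Dusp4 by 0.64 and Dusp6 by 0.53, all again past the threshold. Dusp1 (-0.32, SE 0.07) and Dusp14 (1.33, SE 0.41) passed as well. Dusp14 rested there on 52 UMIs in Lung 1 and 8 in Lung 2 over both classes. The fit of this cluster was not planned in advance, and 519 of 8575 genes tested passed in it. Median depth was 7530 UMIs in cytokine-positive cells and 6661 in the others of Lung 1, and 6530 and 5604.5 in Lung 2. With cells thinned to 2000 UMIs Dusp10 still passed (-0.96), whereas Dusp4 (0.51) and Dusp6 (0.55) did not. DESeq2 called Dusp10 alone of the 3 (adjusted p = 1.26e-06). For Dusp10 the edgeR adjusted p was 0.00154 with thinned cells and 0.112 without the library block. All these fits rest on 2 lung libraries. They compare pools of cells of the same library, and their spread is drawn largely from all genes. The p-values are therefore a weak measure of the spread between mice.

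Other genes of the pathway in cytokine-positive cells were mixed. In the list of ERK feedback genes and targets 6 of 11 genes tested were higher and none lower, with Phlda1 at 412 against 145 CPM (1.49, SE 0.09) and Egr1 at 209 against 114 CPM (0.86, SE 0.10), where Dusp6, another transcriptional target of ERK, was higher too. None of 15 genes of the ERK module passed. Of 15 genes of the p38 and JNK module 3 were higher, among them Mapkapk3 (0.64, SE 0.10), and 2 were lower. Of the 17 early-response genes 1 was higher, Hspa1a (0.37, SE 0.11), and 6 were lower, among them Socs3 (-1.59, SE 0.15) and Zfp36 (-0.49, SE 0.07), with a median of -0.10 over the list.

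Nr4a1 is an immediate-early gene of T cell receptor signaling that also belongs to the early-response list. It had a UMI in 930 and 315 cells of Lung 1 and Lung 2, the majority, and in 117 and 39 cells of MLN 1 and MLN 2. Dusp5 was higher in cells with Nr4a1 in each of the 4 libraries, at 636 against 306 CPM in Lung 1, 579 against 252 CPM in Lung 2, 41.4 against 18.6 CPM in MLN 1 and 35.8 against 19.4 CPM in MLN 2. In MLN cells with Nr4a1 it rested on 36 UMIs in MLN 1 and 10 in MLN 2. Its log2 fold change was 1.16 (SE 0.10, edgeR adjusted p = 2.75e-06), and it was 1.16 in the lung and 1.08 in the MLN libraries alone.

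Dusp2 was also higher in all 4 libraries, at 37.0 against 26.8, 24.5 against 14.8, 42.5 against 16.0 and 43.0 against 13.9 CPM in the same order (1.09, SE 0.22, edgeR adjusted p = 0.0108). In MLN cells with Nr4a1 it rested on 37 UMIs in MLN 1 and 12 in MLN 2. Its call was lost without MLN 1 (adjusted p = 0.209) or MLN 2 (0.0565) and with thinned cells (0.285). Dusp1 was at 889 against 618 CPM in Lung 1 and 969 against 705 CPM in Lung 2 but at 51.7 against 47.7 and 10.7 against 18.7 CPM in MLN (0.44, SE 0.11, edgeR adjusted p = 0.0353), a call lost without Lung 1 (0.221) or Lung 2 (0.269) and in DESeq2 (0.437). Its MLN 2 level in cells with Nr4a1 rested on 3 UMIs. These 3 of 6 members tested were higher, beside 2.04% of 8599 genes, and none was lower, beside 0.419%. Dusp4 (0.58, SE 0.36), Dusp6 (0.33, SE 0.29) and Dusp10 (0.13, SE 0.17) did not pass, and Dusp14 was too low to be tested.

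For Dusp6 and Dusp10 the Nr4a1 contrast differed between the organs. In MLN, Dusp6 was at 58.6 against 21.4 CPM in MLN 1 and 46.6 against 24.9 CPM in MLN 2, while in lung it was at 37.1 against 35.1 CPM in Lung 1 and 50.7 against 102 CPM in Lung 2. In MLN cells with Nr4a1, Dusp6 rested on 51 UMIs in MLN 1 and 13 in MLN 2. Its log2 fold change was 1.29 (SE 0.26, edgeR adjusted p = 6.01e-05) in MLN and -0.43 (SE 0.25) in lung. The difference between them, tested as an interaction of class and organ, was -1.71 (SE 0.34, edgeR adjusted p = 0.00738). Dusp10 was at 45.9 against 79.9 and 60.9 against 75.0 CPM in MLN and at 340 against 303 and 303 against 179 CPM in lung. It rested on 40 and 17 UMIs in the MLN 1 and MLN 2 cells with Nr4a1. Its difference was 1.10 (SE 0.24, edgeR adjusted p = 0.0150). These were 2 of 7 members, where 0.662% of 9209 genes passed this test. Neither the interaction nor the fits of a single organ were planned in advance, and they rest on 2 libraries per organ. Their p-values are a weak measure of the spread between mice. In the lung libraries alone 1.39% of genes passed, among them Dusp1 and Dusp5, and in the MLN libraries alone 5.69%, among them Dusp2, Dusp5, Dusp6 and, lower, Dusp10. Cells with Nr4a1 had more UMIs in every library, at medians of 7203.5 against 5695.5 in Lung 1, 5954 against 4897 in Lung 2, 5805 against 4954 in MLN 1 and 5869 against 4942 in MLN 2. In the list of ERK feedback genes and targets 5 of 8 genes tested were higher in cells with Nr4a1, among them Egr3 (3.52, SE 0.36) and Phlda1 (0.60, SE 0.11), and of 16 early-response genes 9 were higher and 2 lower.

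**Figure D4:**
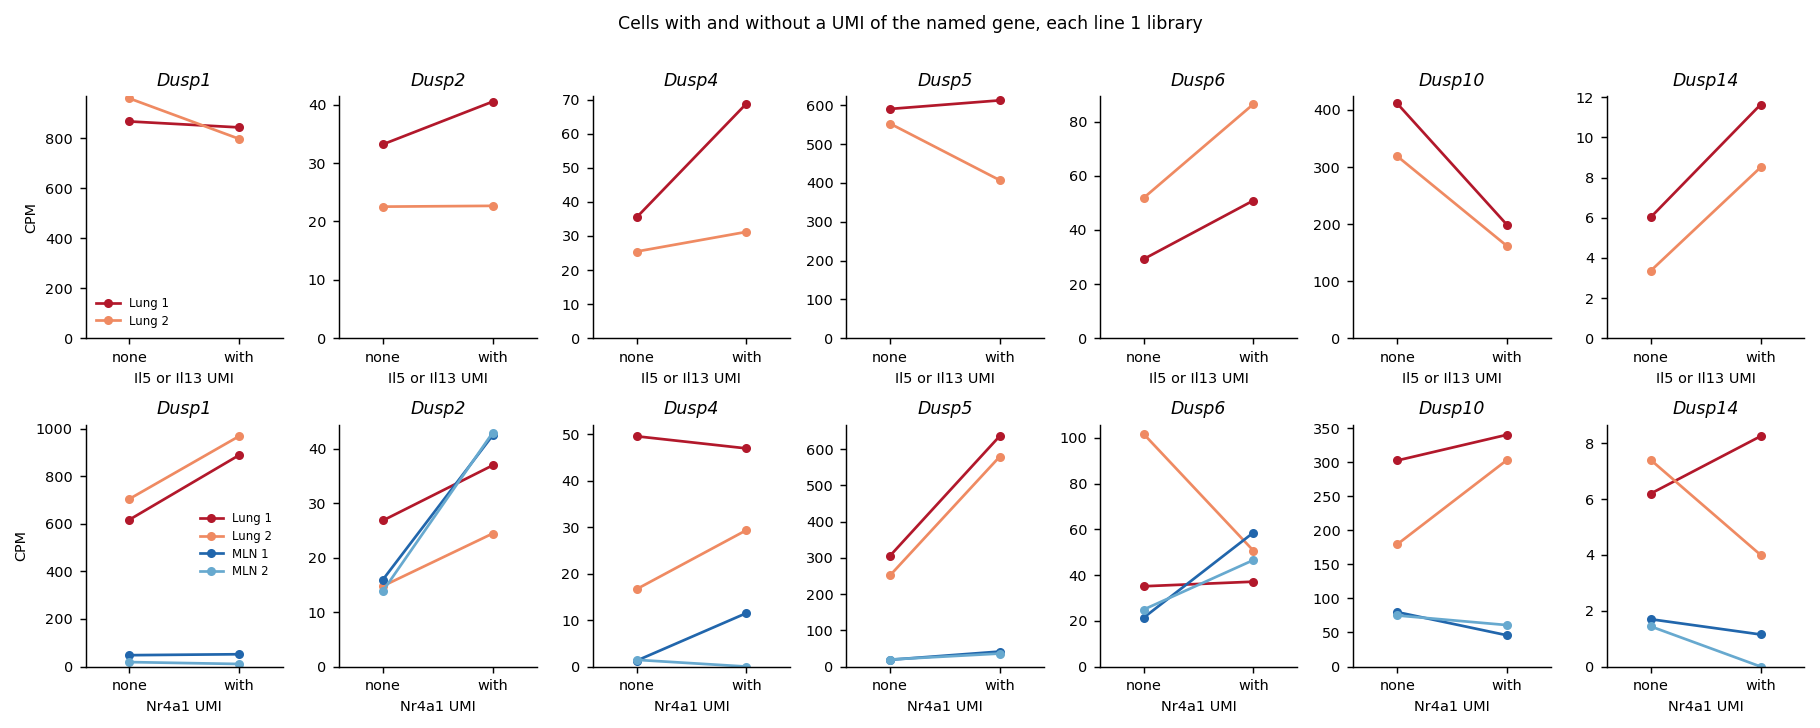
Level of each member (CPM, linear axis from 0) in cells without and with a UMI of Il5 or Il13 (upper row, 2 lung libraries) or of Nr4a1 (lower row, 4 libraries), each line 1 library. Dusp10 falls and Dusp6 rises in cytokine-positive cells of both lung libraries. Dusp5 rises with Nr4a1 in all 4 libraries, in MLN 2 on 10 UMIs in the cells with Nr4a1.

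No member passed in expanded clones. Of the cells with a paired T cell receptor, 1324 belonged to a clone of 2 or more cells in the same mouse. None of the 7 members was called by edgeR, beside 0.195% of 9757 genes tested, and DESeq2 called none either. Over all genes 598 had an unadjusted p under 0.05. Dusp6 had the largest log2 fold change, 0.36 (SE 0.12, edgeR adjusted p = 0.394), and was higher in expanded clones of each of the 4 libraries, and Dusp1 followed at 0.22 (SE 0.08, adjusted p = 0.534). Of the 17 feedback genes and targets, 10 were tested and 1 was higher, Ier3 (1.04, SE 0.19).

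The genes most alike to each member were found by Pearson's correlation of log2(CPM + 1) over the 12 samples after subtracting each run's mean, over 5127 or 5128 genes of at least 20 CPM, a measure that the 2 lung libraries weigh on most for genes with a large difference between organs. Slc7a1 (r = 0.991), Cd69 (0.990) and Tnfaip3 (0.989) were most like Dusp1. For Dusp5 they were Nfkbia (0.993), Tnfaip3 (0.991) and Nabp1 (0.987), and for Dusp4 Atf4 (0.990), Slc3a2 (0.984) and Nfkbiz (0.982). Dusp10 was most like Ifngr2 (0.986), Man1a (0.986) and Nsd3 (0.983). Dusp6 was nearest to Eloa (0.965), Egr1 (0.964) and Setd3 (0.959). Dusp2 had Top2b (0.905), Sat1 (0.902) and Ramp1 (0.885), and Dusp14 Mif4gd (0.943) and Carnmt1 (0.931). Dusp2 thus had the lowest likeness to its nearest genes of the 7 members.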

How the data were processed

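CD4+ T cells were profiled by droplet single-cell RNA sequencing from the 5′ end. The deposited matrices hold UMI counts per gene and cell, which the authors made with Cell Ranger 2.1.1 and 3.0.1 (lung and MLN) or 6.1.2 (medLN and MLN), per the submitters' processing notes, on mm10 (GRCm38). Cells were kept above 500 UMIs and 500 genes, with less than 7% of UMIs from mitochondria and a novelty above 0.8. In lung and MLN a productive T cell receptor α and β chain was also required, leaving 4714 of 6319 barcodes. Hashtag doublets (1256 and 1280) and negatives were removed in the node run. In lung and MLN no doublet caller was run, and 286 multi-chain cells were left out as an alternative. Counts were summed per sample, or per library and class of cells, without T cell receptor genes. They were tested with edgeR 4.0.16 (R 4.3.3, quasi-likelihood, TMM scaling, low counts filtered by edgeR's rule, Benjamini-Hochberg over all genes, threshold 0.05). DESeq2 1.42.0 was an alternative, and clusters were made with Seurat 5.3.0. The fits were tested on simulated data. Contrasts within libraries had the library as a block, and the gate contrast the mouse and organ. With so few libraries the p-values of contrasts within libraries are a weak measure of the spread between mice. Same-numbered samples came from the same mouse, with a correlation of their deviations of 0.083 for lung and MLN, and 0.320 and 0.040 for the IL-4eGFP+ and IL-4eGFP- nodes. The members, gene lists and contrasts were chosen with earlier results of these data known. Beside the members, the genes named of a list were up to 4 of at least 20 CPM with the largest or smallest log2 fold change, and for the other DUSP genes those called at that level. One gene among those most like Dusp14 is not reported here.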

Additional observations from a re-analysis of the deposited data

Results flagged for a closer look

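For Dusp6 the log2 fold change between cells with and without a Nr4a1 UMI was lower in lung than in MLN. The interaction was -1.71 (SE 0.34, edgeR adjusted p = 0.00738), in a test that was not planned in advance. For Dusp10 the interaction was 1.10 (SE 0.24, edgeR adjusted p = 0.0150), in the opposite direction. Each rests on 2 libraries per organ and on 39 to 117 MLN cells with Nr4a1 per library, and Lung 2 alone had less Dusp6 in cells with Nr4a1. The cause was not tested.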

How the results depend on the processing

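All 7 members were called in the lung and MLN comparison over all cells under each alternative but leaving out 1 replicate, which gave 5 to 7. Of the subsets of cells added after seeing the data, proliferating-like cells lost the call of Dusp6, and Dusp14 was too low to be tested in them and in cells without early-response UMIs. Among IL-4eGFP+ nodes the single call became 0 with no filter on low counts and 0 whichever replicate was left out, and among IL-4eGFP- nodes 0 to 1 members passed with a replicate left out. The Il5 or Il13 contrast called 3 members, 1 in DESeq2, 1 with thinned cells and 0 without the library block. The Nr4a1 contrast called 3, or 0 without the block. Its call of Dusp1 was also lost in DESeq2 and without Lung 1 or Lung 2. Its call of Dusp2 was lost without MLN 1 or MLN 2 and with thinned cells. Clones gave 1, Dusp1, with no filter. The replicate block changed no member call between organs, and the members called stayed at 7, 1 and 0. Directions reversed, on the log2 scale, as follows. In the gate contrast among regulatory-like cells, Dusp10 was 0.34, Dusp2 0.13 and Dusp5 0.38. Over all cells the fitted values were -1.65, -0.80 and -0.12. In the Nr4a1 contrast Dusp10 was -0.64 in MLN alone and -0.14 to 0.37 with a library left out (lowest without Lung 2), and Dusp6 -0.43 in lung alone and -0.21 to 0.89 (lowest without MLN 1). In the clones Dusp10 was -0.00020 with no filter, -0.0027 with no replicate block, -0.056 by the β chain and -0.044 to 0.061 with a library left out, Dusp14 -0.020 to 0.19 (both lowest without MLN 1), and Dusp4 -0.42 in DESeq2 and -0.049 when thinned. With a sample left out of the IL-4eGFP- nodes Dusp1 was -0.13 to 0.19, Dusp4 -0.11 to 1.02 and Dusp5 -0.18 to 0.47 (all lowest without medLN 2), Dusp2 -0.14 to 0.44 (without MLN 2), Dusp10 -0.087 to 0.34 (without MLN 1), and Dusp6 -0.53 to 0.44 (highest without MLN 1). In the IL-4eGFP+ nodes Dusp5 was -0.13 to 0.19 (lowest without MLN 1). The cause was not tested. Over all genes, calls between lung and MLN fell from 3284 to 1687 in DESeq2 and 1907 without MLN 1. IL-4eGFP+ nodes gave 144, or 47 with no filter and 13 to 191 with a replicate left out, and IL-4eGFP- nodes 19, or 2, 65 with the replicate block and 98 to 194. The Il5 or Il13 contrast gave 891, or 95 in DESeq2, 38 with no block and 157 when thinned. The Nr4a1 contrast gave 211, or 405 with no filter, 0 with no block, 108 when thinned and 99 to 245 with a library left out. Clones gave 19, or 167, 0 and 45 by the β chain, and 6 to 27. In all, 385 log2 fold changes kept direction and call, 29 lost and 7 gained a call, and 23 reversed. Of the ratios of highest to lowest cluster level at other clustering resolutions, 14 stayed similar and 5 moved. Leaving out a lung library in the Il5 or Il13 contrast leaves no residual degrees of freedom, so it was not run. Depth limits Dusp14 most.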
